A study of Mus musculus with 12 samples.

Results

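Accessible chromatin was examined at 10 genes that regulate self-renewal of hematopoietic stem cells (HSCs), the bone marrow cells that maintain blood formation. The genes were Mecom, Prdm16, Hlf, Mllt3, Msi2, Mycn, Myc, Hmga2, Zfp521 and Bmi1. A region belonged to a gene when it overlapped the gene body in the GENCODE annotation of the mouse build mm10 (GRCm38) or the 10 kb on either side. Of 71006 accessible regions found across the 12 libraries, 144 belonged to these genes, and each belonged to 1 gene only. The study asked how age and loss of Mlkl, which encodes the pseudokinase that executes necroptosis, relate to HSC chromatin. ATAC-seq, in which a transposase cuts and tags open DNA, was performed on bone marrow HSCs of C57BL/6 mice in 4 groups of 3 libraries. Young WT and Young Mlkl-/- mice were 3 months old, and Aged WT and Aged Mlkl-/- mice were 18 months old. Mlkl-/- mice lack the gene in all cells, so the HSCs and the marrow around them shared the deletion. Each library was made from the pooled HSCs of several mice, and young pools drew on more mice than aged pools, so pool size and age cannot be told apart.

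The deposited lists held between 36805 and 63125 peak summits per library, and between 28428 and 48959 catalogue regions were called per list. The aged lists were longer on average, with 44663 ± 4499 regions called against 36323 ± 6534 in the young lists (mean ± SD, n = 6 each). Read counts are not in the files and sequencing depth is therefore unknown. Every list was therefore reduced to its 28428 regions of highest score, and regions were compared by percentile within their list, where 100 is the highest score. A region outside that top set was treated as not called and took the shared percentile of 29.98, while the weakest region inside it stood at 59.96. Within groups, lists shared 0.628 to 0.708 of their regions (Jaccard index of the full lists, the shared regions divided by the regions in either list). Summits at starts of Y-linked genes were present in 3 of 6 young lists and in 0 of 6 aged lists, and the labels give no sex. Marker starts were counted in the full lists, before the cut to equal length. Among the HSC markers described here, the start of Kit was open in 12 lists, those of Procr, Fgd5, Ly6a and Hoxb5 in 9, 7, 6 and 6, and that of Slamf1 in 0. In equal-length lists Kit was open in 12, Procr in 6, Fgd5 in 1, Ly6a in 2 and Hoxb5 in 1. None of 4 T cell and 4 B cell marker starts was open in any list. Of 5 myeloid marker starts, 4 were open in no list and that of Itgam was open in 3. All 3 megakaryocyte marker starts and those of the erythroid genes Klf1 and Epor were open in 12 lists, while Hba-a1 was open in 0. Of the stromal and endothelial markers, Pdgfrb was open in 12 lists, Col1a1 in 11, Lepr in 2 and Cdh5 in 0. Their counts in equal-length lists were 8, 8, 0 and 0.

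Self-renewal is the division of a stem cell into cells of which at least 1 remains a stem cell, and the 10 genes act on it at different levels. Mecom (which encodes EVI1), Prdm16, Hlf and Zfp521 encode transcription factors or co-regulators that are enriched in primitive blood cells. Mllt3 and Bmi1 encode proteins of chromatin complexes, Hmga2 encodes a protein that bends DNA and is known for high levels in fetal stem cells, and Msi2 encodes an RNA-binding protein. Myc and Mycn encode related transcription factors that drive growth and the exit from quiescence. In such genes, open sites inside introns are often enhancers, short stretches where transcription factors bind and act on a start at a distance.

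The sequences of 4 intronic sites show where the results lie. The Msi2, Hmga2 and Mllt3 sites are 3 of the 4 whose rank changed with age, and the Prdm16 site is the steadiest strong site of its gene. Each is the 201 bases centred on the highest summit, on the plus strand of GRCm38. Capitals mark matches to the short motifs searched on both strands, and a match is a description of letters and not proof of binding. The Msi2 window (chr11:88687123-88687323, intron 5) held none of the motifs. The Hmga2 window (chr10:120422112-120422312, intron 3) held the AP-1 motif TGANTCA, beginning 7 bases before the summit. In the Mllt3 window (chr4:87953751-87953951, intron 2) the RUNX motif TGTGGTT matched on the minus strand. The Prdm16 window (chr4:154541688-154541888, intron 1) held the GATA motif AGATAA and the ETS motif AGGAAGT, both on the minus strand.
Msi2: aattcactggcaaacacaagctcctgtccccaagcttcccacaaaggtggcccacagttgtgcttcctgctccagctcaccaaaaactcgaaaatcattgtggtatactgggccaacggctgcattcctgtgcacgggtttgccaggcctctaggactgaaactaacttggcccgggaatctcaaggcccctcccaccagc
Hmga2: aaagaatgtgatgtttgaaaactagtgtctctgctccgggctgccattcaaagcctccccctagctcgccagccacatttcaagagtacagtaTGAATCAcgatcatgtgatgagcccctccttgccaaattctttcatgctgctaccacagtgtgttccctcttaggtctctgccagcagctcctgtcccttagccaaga
Mllt3: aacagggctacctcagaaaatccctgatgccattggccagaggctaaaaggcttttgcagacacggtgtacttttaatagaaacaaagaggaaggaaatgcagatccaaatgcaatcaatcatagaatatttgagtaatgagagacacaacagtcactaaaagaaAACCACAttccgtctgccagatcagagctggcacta
Prdm16: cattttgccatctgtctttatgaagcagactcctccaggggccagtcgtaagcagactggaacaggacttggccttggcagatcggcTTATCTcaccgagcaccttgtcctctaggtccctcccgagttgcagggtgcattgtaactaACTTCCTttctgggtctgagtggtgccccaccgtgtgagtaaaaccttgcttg

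The 144 regions lay mostly inside the genes. By summit position, 125 of them (86.8%) were intronic, 10 lay upstream of the gene, 3 downstream and 4 in untranslated exons, and 2 lay in a gene body without a transcript of the basic annotation. Only 22 (15.3%) had their summit within 1 kb of any annotated start, against 25.9% of all 71006 regions. Mecom held the most regions with 33, followed by Prdm16 and Msi2 with 20 each, Zfp521 with 17, Mllt3 with 16, Hlf and Hmga2 with 14 each, Bmi1 with 5, Myc with 3 and Mycn with 2. All 12 full lists called 25 of the 144 regions (17.4%) and a single list called 34 (23.6%), against 28.6% and 17.0% of all regions. The number called in aged lists only was 41 (28.5%, against 21.1% of all regions), and 16 (11.1%, against 8.85%) were called in young lists only.

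Testing was limited to regions called in at least 3 of the 12 equal-length lists. Of the 144 regions, 51 (35.4%) met that minimum, against 51.1% of all regions, which left 36313 regions in the fit. The other 93 were each called in at most 2 equal-length lists, 55 of them in none, and they have calls but no test. The 51 tested regions had a median GC content of 54.7% near the summit, against 54.2% over all tested regions. Motif shares were described with no test. The ETS motif AGGAAGT lay within 100 bp of the summit in 9 of the 51 (17.6%, against 15.9% of all tested regions) and the RUNX motif TGTGGTT in 7 (13.7% against 10.5%). The GATA motif AGATAA, the AP-1 motif TGANTCA and the E-box CACGTG, which MYC proteins recognise, were each found in 2 regions (3.92%), against 8.59%, 10.0% and 5.62% of all tested regions. The motif TTANNTAA of the PAR bZIP family, to which HLF belongs, was found in 3 (5.88% against 3.09%).

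**Figure D1:**
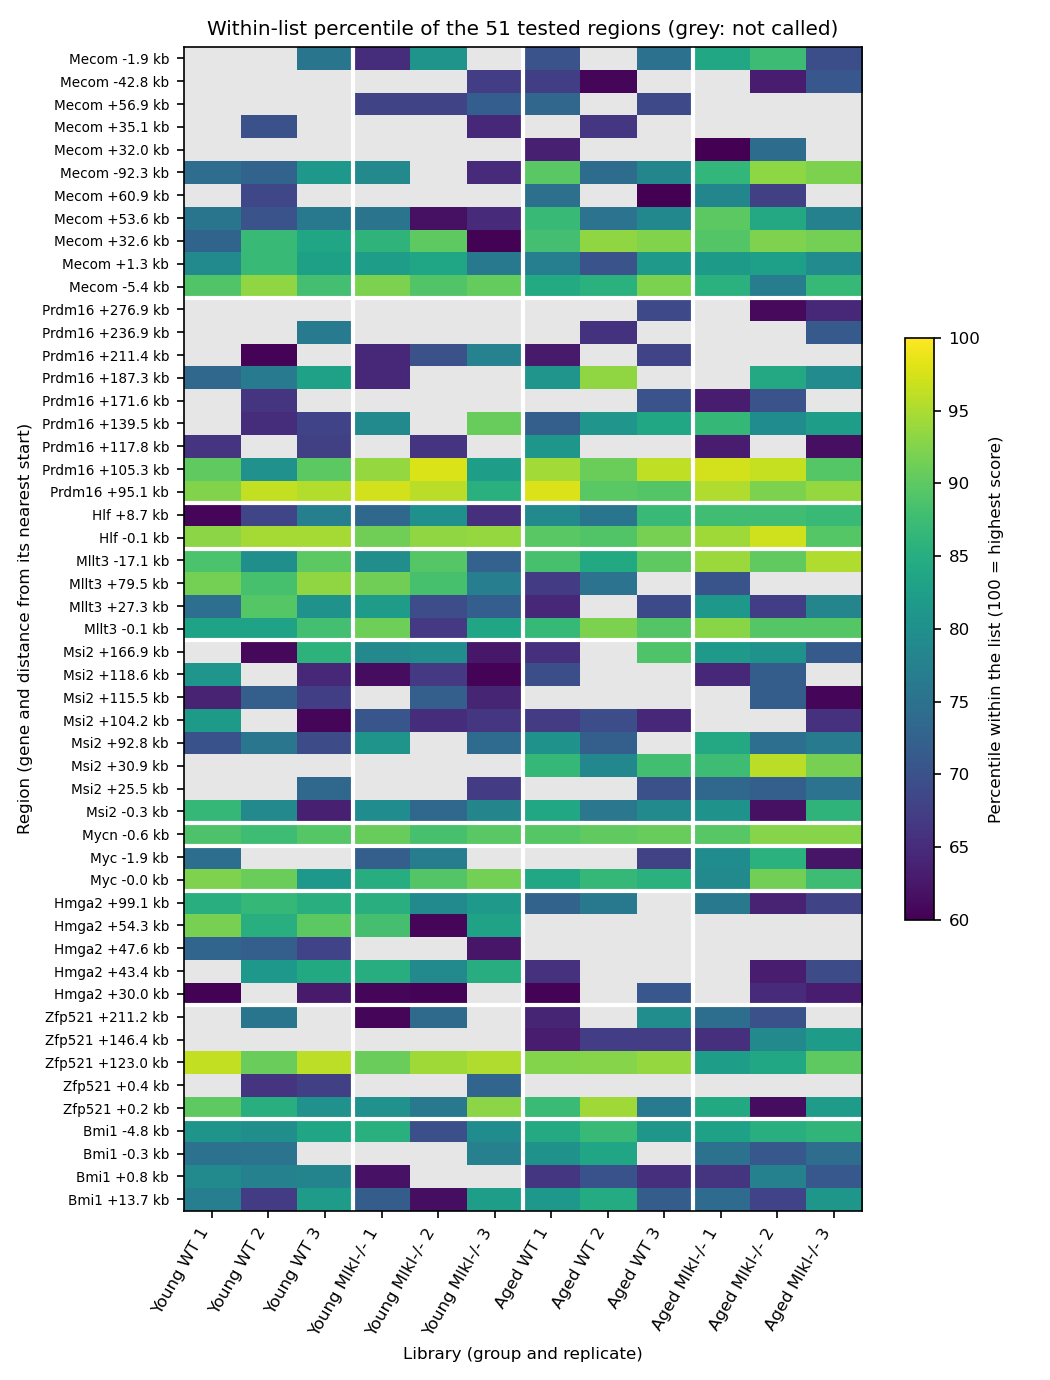
Percentile within the equal-length list (colour, 100 is the highest score) of the 51 tested regions in each of the 12 libraries, with rows ordered by gene and position and labelled with the distance from the gene's nearest start. Grey cells are regions outside the top 28428 of a list. The rows at the starts of Hlf, Mllt3, Msi2, Mycn and Myc are coloured in all 12 libraries. So are the highest-ranking start rows of Mecom and Zfp521, while most intronic rows have gaps.

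The start regions of the 10 genes differed widely in rank. The region of highest mean within 1 kb of a start was taken for each gene, and percentiles are given as mean ± SD over 12 libraries. The Hlf start had the highest mean at 92.7 ± 2.45, followed by Mycn at 90.0 ± 1.57, Myc at 87.1 ± 4.26 and Mllt3 at 86.3 ± 7.04. Zfp521 at 82.5 ± 8.92, Mecom at 80.3 ± 4.34 and Msi2 at 77.3 ± 7.83 came next, and Bmi1 followed at 64.4 ± 17.1. Hmga2 at 38.0 ± 18.7 and Prdm16 at 35.4 ± 12.8 were lowest, since these start regions were each called in 2 of the 12 equal-length lists and in 7 of the full lists. Neighbours in this order differed by less than the larger of their SDs, except Hlf from Mycn and Bmi1 from Hmga2. The Mycn start was the steadiest of the 10, with all libraries between 87.5 and 92.8. The Msi2 start region also lay 129 bp from the start of the divergent gene C030037D09Rik, so the pair cannot be separated in these lists. None of these start regions that were tested (8 of 10) changed with age or genotype at the threshold of an adjusted p of 0.01 (limma).

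Away from the starts, each gene except Mycn had a further region to name. Prdm16 had the highest, the intron 1 site 95.1 kb inside the gene whose sequence is given above, at 93.4 ± 3.75 (n = 12) and between 85.4 and 97.9 in every library. At this gene the order was thus the reverse of that at Hlf, with an intronic site far above the start. Zfp521 followed with a site in intron 3, 123 kb inside the gene, at 91.6 ± 4.49. A Mecom region 5.43 kb upstream of the nearest annotated start, in the part of the gene body with no basic transcript, reached 87.8 ± 4.49, and an Mllt3 site in intron 5 reached 86.9 ± 6.58. The named Bmi1 region, at 82.1 ± 4.62, lay 199 bp from the start of the neighbouring gene Commd3 and so may belong to either gene. The Hlf site in intron 2 (77.4 ± 9.24), the Hmga2 site in intron 3 (74.2 ± 15.7), the Msi2 site in intron 6 (67.9 ± 19.9) and the region upstream of Myc (55.7 ± 23.4) varied more between libraries.

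More of the 144 regions were called in aged than in young lists, but not in lists of equal length. In the full lists, the Young WT libraries called 65, 54 and 47 regions and the Young Mlkl-/- libraries 56, 77 and 42. Aged WT libraries called 79, 66 and 88, and Aged Mlkl-/- libraries 79, 66 and 87. The means were 56.8 ± 12.6 in young and 77.5 ± 9.69 in aged lists (n = 6 each), a ratio of 1.36, while all 71006 regions gave a ratio of 1.23. In lists of equal length the means were 40.5 ± 3.21 and 41.3 ± 3.93, which differed by 0.833 regions, less than the spread between libraries. The 4 group means in equal-length lists lay between 39.3 and 42.3.

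By gene, the full lists gave the largest ratio at Zfp521, whose calls went from 5.17 ± 0.753 per young list to 10.3 ± 2.16 per aged list, with no overlap between the 6 young lists (4 to 6) and the 6 aged lists (7 to 13). In equal-length lists Zfp521 had 3.50 ± 1.05 and 4.67 ± 0.816 calls, and the ranges overlapped. Mecom went from 11.3 ± 3.20 to 18.8 ± 3.66 calls in full lists and from 7.33 ± 1.37 to 9.50 ± 1.52 in equal-length lists. Hmga2 went the other way. It had 5.33 ± 1.03 calls per young and 2.33 ± 1.03 per aged list of equal length, and the young lists (4 to 6) did not overlap with the aged lists (1 to 3). In full lists the Hmga2 values were 7.67 ± 1.37 and 6.67 ± 1.51, and they overlapped. The counts at Hlf (3.50 in young and aged) and Bmi1 (4 in both) were equal on average in full lists. At every gene except Zfp521 and Hmga2, young and aged counts overlapped in both kinds of list. How often such counts fail to overlap over all genes was not computed.

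**Figure D2:**
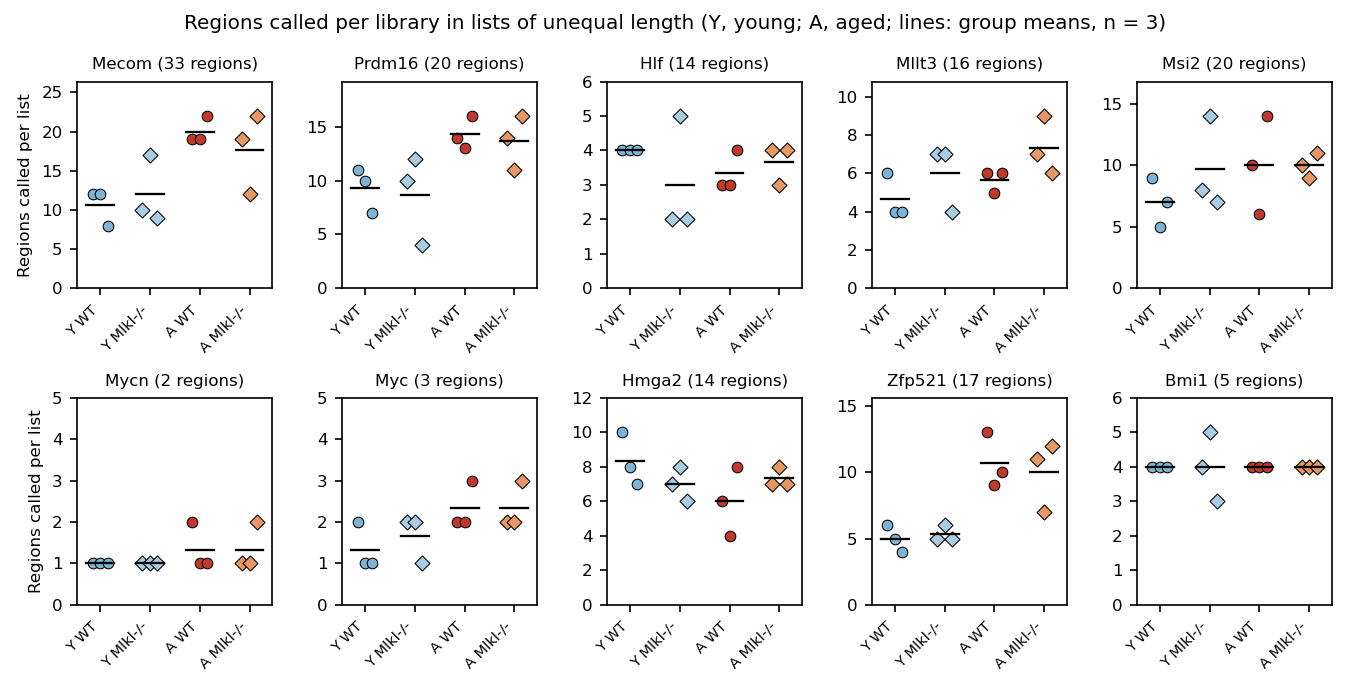
Regions called per library at each of the 10 genes (points, 3 per group; lines, group means) in lists of unequal length, with a vertical axis from 0 for each gene. Zfp521 had 4 to 6 calls in the young and 7 to 13 in the aged libraries, while the means of Hmga2 were 7.67 in young and 6.67 in aged libraries.

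Age was tested over both genotypes, 6 young against 6 aged libraries, in 1 limma fit over the 36313 tested regions. Percentiles were turned into normal scores for the test, the value a standard normal distribution takes at that percentile. A region not called thus has a score of −0.52 and the weakest called region a score of 0.25, so any call brings a fixed step. Of the 51 regions, 4 changed at an adjusted p under 0.01, against 2.65% of all tested regions. Higher in aged HSCs were 2 regions (background 1.67%), at Msi2 and Zfp521, and lower were 2 (background 0.98%), at Hmga2 and Mllt3. All 4 were intronic and at least 30.9 kb from the nearest start of their gene. The median change over the 51 was 0.11 and 31 (60.8%) were positive. Over all tested regions the median was −0.01 and 48.3% were positive. An unadjusted limma p under 0.05 was reached by 14 of the 51 (background 22.1%), of which 8 were higher and 6 lower with age. The 6 young and 6 aged values did not overlap at 5 regions (background 3.7%), 2 higher and 3 lower, which were the 4 that passed and an Hmga2 site.

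The clearest change was in intron 5 of Msi2, the gene for the RNA-binding protein Musashi-2, which sustains stem cell translation programs. This region (chr11:88686949-88687500) lay 30.9 kb inside the gene. In equal-length lists it was called in none of the 6 young libraries. Its percentiles were 86.7, 78.7 and 87.9 in Aged WT, and 87.6, 95.8 and 91.8 in Aged Mlkl-/-. The aged libraries thus ranked it in the upper part of their lists and the young libraries did not hold it. The mean normal score was −0.52 in young and 1.23 ± 0.31 in aged libraries (SD, n = 6), a difference of 1.75 ± 0.20 (SE) with an adjusted p of 9.35e-05 by limma. All 6 young values were the shared score of a region not called, so the young group had no spread. Only the aged libraries brought the region over the minimum number of lists for testing. The SE and p take no account of this. In the full lists the region was also called in Young Mlkl-/- 1 and 2, with deposited scores of 6.02 and 6.98, where a score is the −log10 of the peak's q-value. Aged WT lists gave it scores of 22.9, 13.7 and 22.2, and Aged Mlkl-/- lists scores of 24.2, 32.1 and 35.6. Scores are not comparable between lists of different depth, and depth is unknown here. The difference passed the threshold in every alternative run over both genotypes. Flanks of 2 or 50 kb and a threshold of 0.05 could not undo the call. All runs drew on the same libraries, so they are not separate evidence. The other tested Msi2 regions, 7 in number, did not pass.

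The second region that was higher with age lay in intron 4 of Zfp521, which encodes a zinc finger protein that restrains differentiation of early blood cells. It spanned chr18:13824826-13825569, 146 kb inside the gene. No young library called it, in full or in equal-length lists. Its percentiles were 63.2, 67.2 and 67.2 in Aged WT and 65.6, 79.1 and 82.1 in Aged Mlkl-/-. Values of 63.2 to 67.2 lie near the lower end of the called range, and 79.1 and 82.1 near its middle. The mean score was 0.56 ± 0.24 in aged libraries, a difference of 1.08 ± 0.21 (SE) with a limma adjusted p of 0.00357. All young values were again the score of a region not called, with no spread, and only aged libraries brought the region into the test. The call was lost without Young WT 2 (adjusted p = 0.0108), Young WT 3 (0.0104) or Aged Mlkl-/- 2 (0.0101), and with regions called in at least 1 list tested (0.0118). With summits of a score of at least 5 the difference was 0.71 with an adjusted p of 0.105. Among the 9 libraries with an unexplained tag in the file name it was 1.15 (adjusted p = 0.0168). Another Zfp521 site, the strong one in intron 3, differed by −0.31 ± 0.12 and did not pass (adjusted p = 0.13).

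At Hmga2, 1 of 5 tested regions was lower in aged HSCs at the threshold. A negative difference was found at 4 of the 5, and the median over the 5 was −0.68, while 48.3% of all tested regions had a positive difference. The region that passed (chr10:120421887-120422510, intron 3, 54.3 kb inside the gene) holds the AP-1 motif shown above. It stood at percentiles of 91.8, 85.2 and 89.9 in Young WT and 88.1, 60.6 and 83.1 in Young Mlkl-/-. None of the 6 aged libraries held it among its top 28428 regions. It was still called in 5 of the 6 aged full lists, with scores between 5.03 and 8.38, against 8.75 to 24.9 in the young lists, so the site fell in rank but remained called in most aged lists. These scores too are not comparable between lists of different depth. The mean normal score was 1.02 ± 0.40 in young and −0.52 in aged libraries, a difference of −1.55 ± 0.22 (SE, adjusted p = 0.00051). Here the aged values had no spread, all being the score of a region not called, and only young libraries brought the region into the test. The other 3 lower Hmga2 regions did not pass. They differed by −0.60 ± 0.20 (99.1 kb inside the gene, adjusted p = 0.077), −0.68 ± 0.21 (47.6 kb, adjusted p = 0.057) and −0.76 ± 0.29 (43.4 kb, adjusted p = 0.124). These 5 regions lie in 1 gene and share their libraries, so they are not replicates of the age change.

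The fourth region was in intron 2 of Mllt3, the gene for the YEATS-domain protein AF9, which keeps active chromatin marks at stem cell genes. It spanned chr4:87953594-87954157, 79.5 kb inside the gene, with the RUNX motif shown above. Its percentiles were 91.7, 88.3 and 93.4 in Young WT and 91.4, 88.3 and 77.1 in Young Mlkl-/-. In Aged WT they were 67.1 and 75.2, and the third library did not call it. In Aged Mlkl-/- 1 the percentile was 70.3, and the other 2 libraries did not call it. In the full lists all 12 libraries called the site. The mean normal score was 1.23 ± 0.27 in young and 0.01 ± 0.59 in aged libraries, a difference of −1.22 ± 0.24 (SE, adjusted p = 0.00485). The call did not hold without any 1 of Young WT 1, 2 or 3, Young Mlkl-/- 1 or 2, Aged WT 1 or 3, or Aged Mlkl-/- 2 or 3, where the adjusted p reached up to 0.0215. Nor did it hold with percentiles in place of normal scores (adjusted p = 0.0251). None of the other 3 tested Mllt3 regions passed. The start differed by 0.32 ± 0.15 (adjusted p = 0.214) and the intron 5 site by 0.33 ± 0.14 (adjusted p = 0.157), while a site 27.3 kb inside the gene differed by −0.39 ± 0.21 (adjusted p = 0.27).

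List length and the Y-linked summits moved with age, and both were entered as covariates. With list length in the fit, the Msi2 region was the only one of the 4 that passed, and the Hmga2, Mllt3 and Zfp521 regions had differences of −1.38, −1.27 and 1.09 with adjusted p values of 0.0281, 0.0556 and 0.0593. With the Y-linked summits in the fit, the Msi2 and Hmga2 regions passed, while Mllt3 (−1.07, adjusted p = 0.0622) and Zfp521 (1.08, adjusted p = 0.0252) did not. Y-linked summits varied only among young libraries, where the Msi2 and Zfp521 regions were always at the shared score of regions not called. This covariate therefore could not move the differences of those regions (1.75 and 1.08 with and without it), so their outcome is no test of it.

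**Figure D3:**
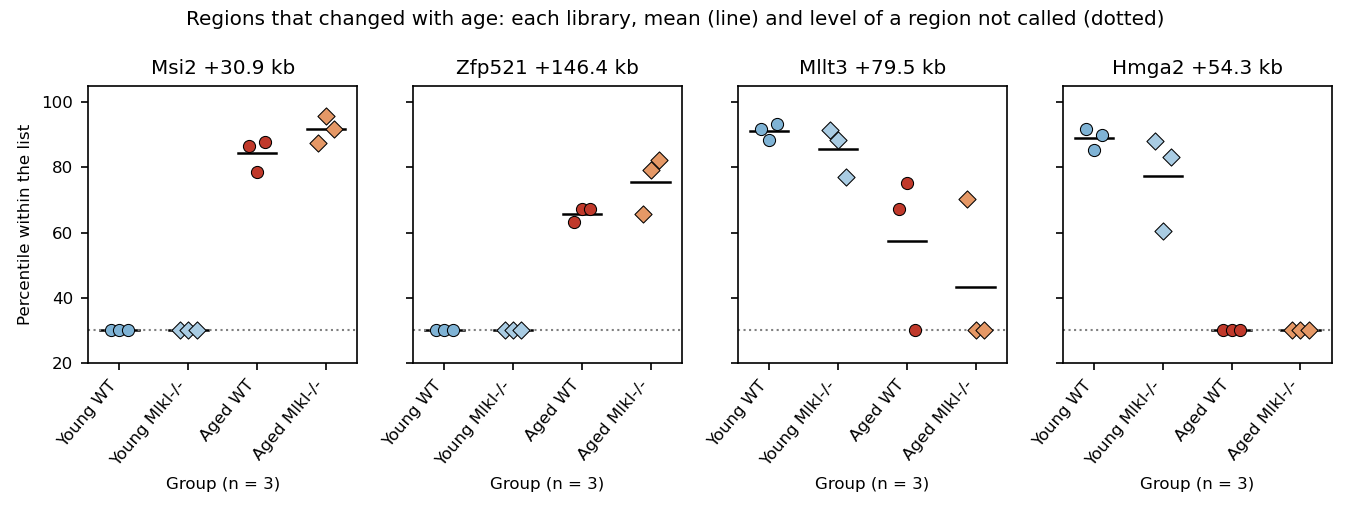
Percentile within the equal-length list in each library (points, 3 per group) for the 4 regions that changed with age over both genotypes, with the group mean as a line and the level of a region not called as a dotted line. The Msi2 and Zfp521 regions were called in the 6 aged libraries and in no young library, the Hmga2 region in the 6 young libraries and in no aged library, and the Mllt3 region in 6 young and 3 aged libraries.

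At the other genes no region passed, and the values are given by role. Regions of a gene share their libraries, and 48.3% of all tested regions had a positive age difference. Among the transcription factors, Mecom, whose product EVI1 is needed for long-term HSCs, had 7 of 11 tested regions with a positive age difference and a median of 0.46. The largest of those with an unadjusted limma p under 0.05 was a site in intron 1 with ETS and RUNX motifs (chr3:30329996-30330918), at 0.65 ± 0.20 (SE, adjusted p = 0.0617). Other Mecom sites differed by 0.47 ± 0.16 (adjusted p = 0.0902) and 0.39 ± 0.16 (adjusted p = 0.147). The Mecom start was at −0.11 ± 0.14. Prdm16, a co-regulator related to Mecom, had 7 of 9 regions with a positive difference and a median of 0.25, with the strong intron 1 site at −0.08 ± 0.16. For Hlf, which encodes a PAR bZIP factor that marks primitive HSCs, the intron 2 site differed by 0.45 ± 0.15 (adjusted p = 0.081). Young WT libraries held it at percentiles of 60.5, 68.4 and 77.3, and Young Mlkl-/- libraries at 73.3, 80.0 and 65.4. It stood at 79.0, 75.6 and 87.1 in Aged WT and at 87.7, 87.8 and 86.9 in Aged Mlkl-/-, so young and aged ranges overlapped. The Hlf start was at −0.08 ± 0.12. For the growth regulators, the start of Mycn differed by 0.11 ± 0.10 and that of Myc by −0.13 ± 0.13. All 4 tested regions of Bmi1, a subunit of Polycomb repressive complex 1, had a positive difference with a median of 0.21, and none passed.

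**Figure D4:**
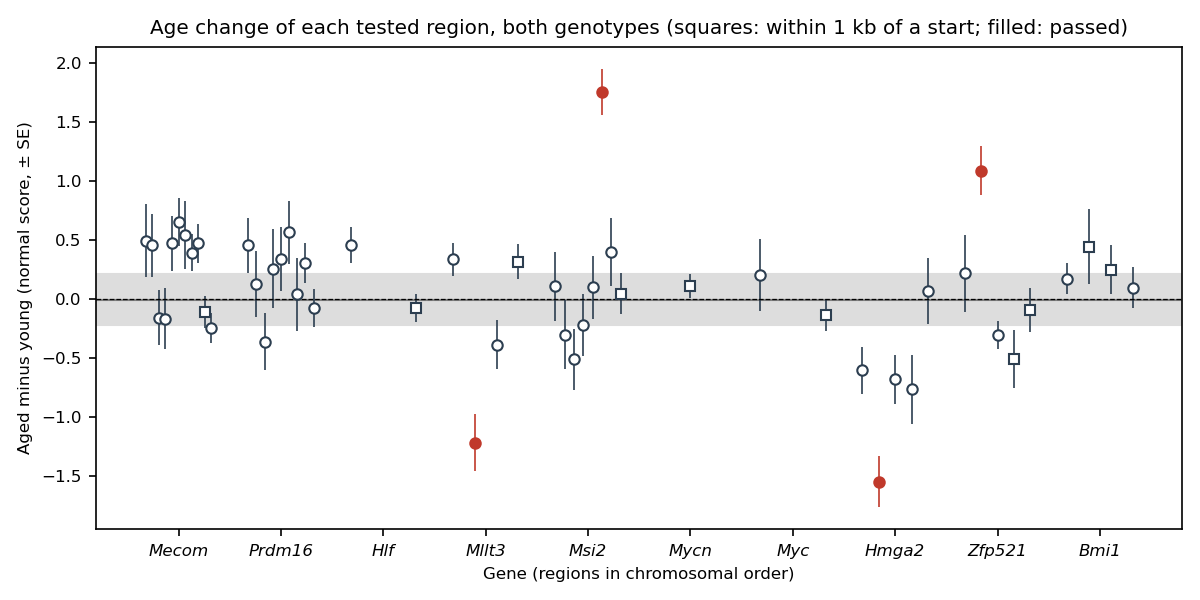
Difference in normal score between aged and young libraries over both genotypes (points, ± SE from limma) for each of the 51 tested regions by gene, with squares for regions within 1 kb of a start, filled red symbols for the 4 regions that passed, and a grey band for the range between the quartiles of all 36313 tested regions. The Hmga2 points lie mostly below the band (median −0.68), and 7 of the 11 Mecom points lie above 0, as do 48.3% of all tested regions.

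The age change was then read in each genotype, 3 young against 3 aged libraries. In WT mice 0 of the 51 regions passed (limma, background 0.121%), and 9 had an unadjusted p under 0.05 (background 14.6%). The lowest adjusted p values were 0.0116 at the Hmga2 region (−1.76 ± 0.31) and 0.0128 at the Msi2 region (1.55 ± 0.28). In Mlkl-/- mice 1 region passed (background 0.154%), the Msi2 region, at 1.95 ± 0.28 and an adjusted p of 0.00393, and 12 had an unadjusted p under 0.05 (background 14.3%). That call was lost when any 1 of the 6 Mlkl-/- libraries or Aged WT 1 was left out, where the adjusted p was between 0.0111 and 0.0462. It was also lost with percentiles (adjusted p = 0.0231), a separate fit (0.0501) and a replicate block (0.0142). The same held for list length (0.0229) or Y-linked summits (0.0383) as a covariate, and the 9 tagged libraries (0.0748). In Mlkl-/- mice the Hmga2 region was at −1.33 ± 0.31, the Mllt3 region at −1.27 ± 0.34 and the Zfp521 region at 1.24 ± 0.29. In WT mice the Mllt3 region was at −1.16 ± 0.34 and the Zfp521 region at 0.93 ± 0.29. Young and aged values did not overlap at 14 of the 51 regions in WT mice (6 higher and 8 lower, background 17.4%) and at 16 in Mlkl-/- mice (8 and 8, background 15.7%).

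Beyond these 4, further regions of large non-overlapping change were named in each genotype. In WT mice they were an Hmga2 site in intron 3 (−1.08 ± 0.30, adjusted p = 0.0651), called at percentiles of 73.1, 72.0 and 68.0 in Young WT and in no Aged WT library, and a Prdm16 site in intron 2 (0.71 ± 0.38, adjusted p = 0.392). The same sites were at −0.28 ± 0.30 and 0.42 ± 0.38 in Mlkl-/- mice. In Mlkl-/- mice they were the Mecom intron 1 site with ETS and RUNX motifs (1.12 ± 0.29, adjusted p = 0.0571) and a Prdm16 site in intron 3 (−1.08 ± 0.34, adjusted p = 0.12). These were at 0.18 ± 0.29 and 0.35 ± 0.34 in WT mice. None of these differences between genotypes passed the test of the interaction.

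**Figure D5:**
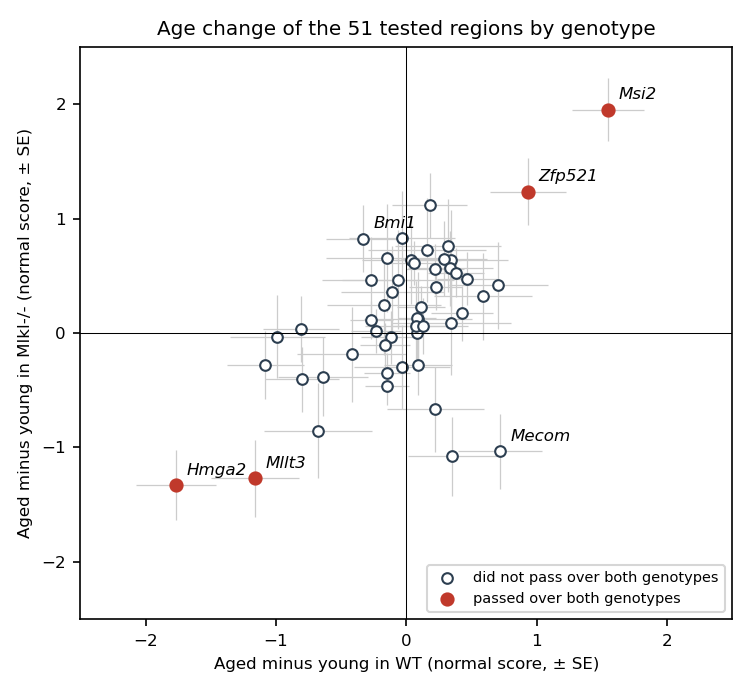
Difference between aged and young libraries in WT mice (horizontal axis) against that in Mlkl-/- mice (vertical axis), in normal scores ± SE, for the 51 tested regions. The 4 regions that passed over both genotypes (red) were selected by the mean of the 2 axes. Their same sign in both is therefore no separate evidence. The Msi2 region was at 1.55 and 1.95 and the Hmga2 region at −1.76 and −1.33.

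Loss of Mlkl was tested at each age. At 3 months 0 of the 51 regions passed (limma, 0% of all tested regions), 4 had an unadjusted p under 0.05 (background 5.36%), and the lowest adjusted p was 0.50. At 18 months 0 passed (background 0%), 3 had an unadjusted p under 0.05 (background 5.04%), and the lowest adjusted p was 0.863. Over both ages 0 passed (background 0%) and 3 had an unadjusted p under 0.05 (background 6.22%). The median SE of a difference was 0.32 at 1 age and 0.23 over both ages, so small differences could not be detected at this size, and a p that misses the threshold does not show that the genotypes were alike. The differences ranged from −1.03 to 1.03 at 3 months and from −0.72 to 0.93 at 18 months.

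At 3 months WT and Mlkl-/- values did not overlap at 5 regions (background 8.17%). Higher in Mlkl-/- mice were a Mecom site in intron 1 (1.03 ± 0.32, adjusted p = 0.563) and the Prdm16 site in intron 3 (0.82 ± 0.34, adjusted p = 0.867). The Mecom site was called in no Young WT library, and at 68.2, 68.3 and 71.9 in Young Mlkl-/-. Lower were the Bmi1 region at the start (−1.03 ± 0.29, adjusted p = 0.50), another Prdm16 site in intron 3 (−0.99 ± 0.47, adjusted p = 0.867) and the Hmga2 site in intron 3 named above (−0.80 ± 0.30, adjusted p = 0.783). The Bmi1 region, 801 bp inside the gene, was at 78.9, 77.5 and 78.1 in Young WT, at 62.0 in Young Mlkl-/- 1, and not called in the other 2. In full lists it was called in 2 of 3 Young Mlkl-/- libraries. At 18 months values did not overlap at 3 regions (background 8.5%). Those were an Msi2 site in intron 5 (0.81 ± 0.41, adjusted p = 0.863) and the Mllt3 site in intron 5 (0.34 ± 0.20, adjusted p = 0.863), which were higher in Mlkl-/- mice, and the Zfp521 site in intron 3 (−0.41 ± 0.17, adjusted p = 0.863), which was lower.

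For the interaction, which asks whether the age change differed between genotypes, 0 of the 51 regions passed (limma, background 0%), 4 had an unadjusted p under 0.05 (background 4.76%), and the lowest adjusted p was 0.963. The 4 were named after their values were seen. They were the Mecom intron 1 site called in young Mlkl-/- mice (−1.75 ± 0.46), the Prdm16 intron 3 site (−1.43 ± 0.49), the Bmi1 start region (1.15 ± 0.41) and the Mecom intron 1 site with ETS and RUNX motifs (0.94 ± 0.41). The Mecom site of the largest value was called in 3 Young Mlkl-/- and 2 Aged WT lists of equal length and in no others. Among full lists it was called in all 3 Young Mlkl-/- and all 3 Aged WT libraries, in 2 that were Aged Mlkl-/- and in 1 that was Young WT.

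Partners and paralogues of the 10 genes were read from the same fit. The list held 36 genes, among them the MYC partner Max, the HLF relatives Tef and Dbp, the Hmga2 regulator Lin28b, and the Polycomb genes Ring1 and Rnf2. They had 193 regions, of which 102 were tested, and regions shared by neighbouring genes were counted once. None passed for age over both genotypes (limma, lowest adjusted p 0.0111), and 14 (13.7%, background 22.1%) had an unadjusted p under 0.05, 6 of them higher with age. None passed in WT mice, where 10 (9.80%, background 14.6%) had an unadjusted p under 0.05, or in Mlkl-/- mice, where 7 (6.86%, background 14.3%) did. None passed for genotype, where 1 at 3 months (background 5.36%), 2 at 18 months (background 5.04%) and 2 over both ages (background 6.22%) had an unadjusted p under 0.05, or for the interaction, where 1 did (background 4.76%). Their median age difference was 0.003.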

How the data were processed

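ATAC-seq libraries from HSCs had been mapped by the authors to mm10 with Bowtie2 2.5.3, and peaks were called per library with MACS2 2.2.7.1. The submitters' notes also name bedtools 2.31.0 and edgeR 3.30.3. Each deposited file lists summits, and the authors' peak caller gave every summit a score, its −log10 q-value. The lowest scores were 2.00 to 2.01, so summits with a score of at least 3 (q of 0.001, the cutoff the methods state) were kept on X, Y and chromosomes 1 to 19. Windows of 250 bp on each side were merged over the 12 lists. Lists hold no read counts, so no count test was possible, and n = 3 libraries per group limited the precision.

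In each list, regions were ranked by highest score and cut to 28428 called regions. Normal scores of the ranks were tested in 1 fit over 12 libraries and 7 contrasts with limma 3.58.1 (eBayes with trend, R 4.3.3), with Benjamini-Hochberg adjustment over 36313 regions and a threshold of 0.01. The fit was tested on simulated data. Genes, starts and introns followed GENCODE M21 (basic transcripts for starts), and sequences came from the RefSeq copy of GRCm38. Calculations used Python 3.11.15, numpy 2.4.6, scipy 1.17.1, pandas 2.3.3 and pysam 0.24.0.

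Groups followed the sample titles. The genes and lists were chosen with earlier results of these data known. Regions were named by rule: per gene the highest mean at a start and farther away, every region past the threshold, and per contrast the 3 higher and 3 lower of largest non-overlapping change. Other regions given with values were chosen after those were seen. Alternatives were no score minimum, a minimum of 5, windows of 100 bp, flanks of 2 or 50 kb, unequal lists, a catalogue from equal lists, at least 1 or 6 lists, percentiles, separate fits, a threshold of 0.05, a replicate block, 2 covariates, only the 9 libraries with an unexplained tag in the file name, and each library left out. Whether replicates were separate animals' pools is stated by the methods, which call them biological replicates. The HSC marker list held 1 further gene that is not reported here.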

Additional observations from a re-analysis of the deposited data

Results flagged for a closer look

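The age change of the Bmi1 region 801 bp inside the gene went in opposite directions in the 2 genotypes, with every Aged WT library below every Young WT library and every Aged Mlkl-/- library above every Young Mlkl-/- library. Such non-overlap was found at 17.4% of all tested regions in WT and 15.7% in Mlkl-/- mice. The share with both, in opposite directions, was not computed. Young Mlkl-/- 2 and 3 did not call the Bmi1 region in equal-length lists. The difference between the age changes (Mlkl-/- minus WT) was 1.15 ± 0.41 (SE), from a change of −0.33 ± 0.29 in WT and 0.83 ± 0.29 in Mlkl-/- mice. It did not pass the interaction test over all regions (limma adjusted p = 0.963).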

How the results depend on the processing

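Over both genotypes, the count of 4 regions that changed with age was 1 with list length as a covariate and 2 with the Y-linked summits as a covariate, and 2 to 4 with each library left out in turn (2 without Young WT 2, Young WT 3 or Aged Mlkl-/- 2). In WT mice the count of 0 became 2 with lists of unequal length, 2 with regions called in at least 6 lists, 1 with the catalogue from equal lists, and 2 at an adjusted p under 0.05, and it was 0 to 1 with a library left out (1 without Young Mlkl-/- 2 or 3). In Mlkl-/- mice the count of 1 became 0 with percentiles, a separate fit, the replicate block, either covariate, or the 9 tagged libraries, became 3 at an adjusted p under 0.05, and was 0 to 1 with a library left out. The causes were not tested. The Msi2 region passed over both genotypes in all 27 alternatives, the Hmga2 region in 26, the Zfp521 region in 19 and the Mllt3 region in 15. These numbers include the flanks of 2 or 50 kb and the threshold of 0.05, which could not undo a call. Genotype and interaction counts were 0 in every alternative, and no difference of a named region changed sign. The aged minus young difference in regions called per list was 20.7 with unequal lists, and −0.0667 (without Young Mlkl-/- 2) to 2.17 with a library left out, against 0.833 with all libraries. An Hmga2 and a Mecom region had no value at a minimum of 6 lists.

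Replicate numbers did not pair the libraries. Deviations of 18 pairs with the same number correlated at −0.031 on average (−0.308 to 0.126), other pairs at 0.015, and 4 of 12 libraries correlated best with their own number. The replicate block lowered the count in Mlkl-/- mice from 1 to 0.

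Sequencing depth is unknown, and a rank is relative to the other regions of its list. A region not called in an equal-length list is not shown to be closed.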
